A study of Homo sapiens with 24 samples.

Results

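The comparison concerns m6A peaks of wild type (WT) and METTL3 knockout (KO) U2OS cells after UV, and was made on the 2 deposited peak lists for these conditions, out of 4 in the series. The lists hold 24936 of the series' 52777 peaks, 15465 from WT plus UV and 9471 from KO plus UV. Every peak of the 2 lists was taken, and a peak was called overlapped when at least 1 of its bases, on that transcript, also lay in a peak of the other genotype. U2OS is a human osteosarcoma line. All cells, WT and KO, were grown with 10 µM of the nucleoside analogue BrdU for 24 to 48 h, exposed to UVC at a labelled dose of 50 J and collected after 2 min at 37 °C. RNA selected for polyA tails was immunoprecipitated (IP) with an antibody against m6A and sequenced next to its input as 50-base single-end reads. The WT plus UV condition had 4 IP and 4 input libraries, numbered 1 to 4, and KO plus UV had 2 of each, numbered 1 and 3. The labels do not say which allele or how many clones the knockout line stands for. Each condition has 1 list for all its libraries, with transcript positions but no score, read number or depth. The depth behind a peak is therefore unknown. No test between genotypes was made, since no values exist from which a replicate spread could be taken. Intervals are 95% Wilson intervals that cover counting error alone, and several peaks of 1 transcript share its RNA. Genotype cannot be told apart from the number of libraries (4 against 2).

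N6-methyladenosine (m6A) is placed on nascent messenger RNA by a methyltransferase complex in which METTL3 is the catalytic subunit, METTL14 holds the RNA and WTAP, VIRMA, ZC3H13, RBM15, RBM15B and CBLL1 are regulatory partners. The complex prefers adenosines in DRACH sequences such as GGACT, and its marks are often found in long internal exons and near stop codons, where YTH domain proteins bind them. The cap-adjacent mark m6Am is recognised by many m6A antibodies as well but is placed by another enzyme, PCIF1, where the transcript starts with A. METTL3 and m6A have been described at sites of UV damage within minutes of irradiation.

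Only the first bases of transcripts could be read here, from the RefSeq promoter table (GRCh38.p14), so the sequences below are shown to let a reader see the m6A core GGACT inside peaks that begin at base 1 of their transcript. Such peaks numbered 639 in WT plus UV, of which 347 (54.3%, 50.4 to 58.1) had no overlap, and 388 in KO plus UV, of which 90 (23.2%, 19.3 to 27.6) had none. Windows of 30 bases are given 5′ to 3′ for the widest such peaks whose gene has GGACT within its first 50 bases, with the motif in capitals. The table's gene start may differ from the start of the transcript in the list. The windows of ERO1A, an oxidase of the endoplasmic reticulum (chr14:52695509-52695538, minus strand), and UTP11, a ribosome assembly factor (chr1:38012734-38012763, plus strand), lie in peaks found in both lists. Those of RASSF3, a RAS association domain protein (chr12:64610510-64610539, plus strand), and E2F2, a cell cycle transcription factor (chr1:23531202-23531231, minus strand), lie in WT peaks without an overlap. Those of MOCOS, the molybdenum cofactor sulfurase (chr18:36187513-36187542, plus strand), and ARL14EP, a partner of a small GTPase (chr11:30323105-30323134, plus strand), lie in KO peaks without an overlap.
ERO1A: cgaccgagcgtgcGGACTggcctcccaagc
UTP11: agtGGACTtggcggcagaggcagtgcggat
RASSF3: gcagctgcataaGGACTgcccggggctgcg
E2F2: agaaagactcaaGGACTagagagcgagccg
MOCOS: gccggcctggatGGACTagccggggccatg
ARL14EP: gtggtagcgcggGGACTggctgggaagcgg

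The ERO1A peak ran from base 1 to 200 in WT and from 11 to 177 in KO, and that of UTP11 from 1 to 179 in WT and 1 to 181 in KO. On the sense strand, GGACT was present in the first 50 bases of 11 of the 390 genes with a WT base-1 peak and a single table entry (2.82%, 1.58 to 4.98) and of 11 of 247 such genes in KO (4.45%, 2.50 to 7.80). Over all 22114 genes with a single entry the share was 4.92%, and neither of the 2 shares was above it. A first base of A was found in 53.6% (48.6 to 58.5) of the WT and 55.9% (49.6 to 61.9) of the KO base-1 genes, beside 46.4% of all genes with a peak in either list and 44.3% of the table. Among the WT base-1 genes it was 55% (47.9 to 61.9) with an overlap and 52.2% (45.4 to 59) without, shares whose intervals overlap.

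METTL3 itself (chromosome 14, 21498138 to 21511340, GRCh38, as for all gene positions here) carried 2 peaks in each list, all overlapped. They lay at bases 12 to 180 and 497 to 725 of the transcript in WT and at 1 to 180 and 494 to 720 in KO. A peak marks a stretch the authors called from the antibody pulldown and gives neither the amount of the RNA nor its protein, so these peaks do not check the knockout. The coordinates of METTL3 peaks differed by at most 11 bases between genotypes.

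Of the WT plus UV peaks, 7880 of 15465 (51%, 50.2 to 51.7) had no overlap in KO plus UV. Of the KO plus UV peaks, 1826 of 9471 (19.3%, 18.5 to 20.1) had none in WT plus UV. Thus 7645 KO peaks (80.7%) lay where WT cells also had one, while 7585 WT peaks (49.0%) did so. The lists differ in length, so the WT share would be above 0 even with every KO peak matched 1 to 1. When only the 9471 widest WT peaks were kept, all at least 175 bases wide, 45.0% of these and 43.0% of the KO peaks lacked an overlap. In bases, 1359677 were common to both lists, which is 43.2% of the 3143820 WT bases and 76.9% of the 1769098 KO bases.

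Peaks without an overlap came from different places in the genotypes. In WT, 5279 peaks (34.1%) lay on transcripts with no KO peak at all and 2601 (16.8%) on transcripts that carried a KO peak elsewhere. In KO the larger part, 1195 peaks (12.6%), lay on transcripts that also had a WT peak, and 631 (6.66%) on transcripts without one. On the 5015 transcripts present in both lists, 25.5% of WT peaks and 13.5% of KO peaks had no overlap. These transcripts make up 62.2% of those in WT and 90.1% of those in KO.

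**Figure D1:**
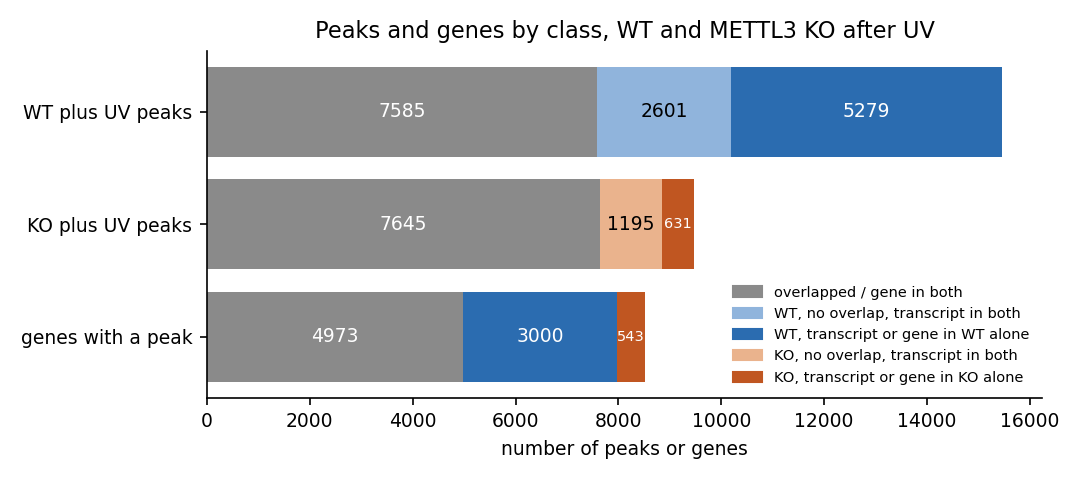
Number of peaks (upper bars, by list) and of genes (lowest bar) in each class, where an overlap is at least 1 common base on the same transcript. WT holds 5279 peaks on transcripts with no KO peak, against 631 KO peaks on transcripts with no WT peak, and 4973 of 8516 genes have a peak in both lists.

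Overlapping peaks were chosen by their common bases, so the closeness of their positions is in part set by that choice and is given as a description. Of the overlaps, 6821 joined 1 WT peak with 1 KO peak, and the centres of such pairs were a median of 11.5 bases apart (quartiles 4.5 and 27). A median of 171 bases was common to the pair, 1966 pairs (28.8%) had both ends within 10 bases of each other, and 132 (1.94%) had identical ends. The WT peak was the wider in 4289 pairs (62.9%) and the KO peak in 2219 (32.5%), with a median difference of 8 bases. In 2606 pairs (38.2%) the KO peak lay wholly inside the WT peak and in 1296 (19%) the reverse was true. A further 350 WT peaks covered at least 2 KO peaks each, and 296 KO peaks covered at least 2 WT peaks. POLR2A, the largest subunit of RNA polymerase II (chromosome 17, 7484366 to 7514616), is one such case: the widest WT peak of the list, 994 bases from 5174 to 6167, faced KO peaks at 5198 to 6139 and 6140 to 6244 that touch each other.

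The widest 1-to-1 pair was on RIPOR1, a regulator of cell polarity and migration, with a WT peak at 1619 to 2508 and a KO peak at 1650 to 2472 that lay wholly within it, for 823 common bases. It was followed by PATZ1, a zinc finger transcription factor, with WT 792 to 1444 and KO 774 to 1421, and by SIK3, a salt-inducible kinase, with WT 2773 to 3430 and KO 2781 to 3410, each with 630 common bases. PMEPA1, an inhibitor of TGF-beta signalling, had WT 711 to 1304 and KO 681 to 1304. PLXND1, a semaphorin receptor, had WT 5757 to 6338 and KO 5759 to 6345, and PTPN23, a phosphatase family protein of endosomal sorting, had WT 2681 to 3289 and KO 2651 to 3258. In these 6 pairs at least 578 bases were common.

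Peak width went with the presence of a counterpart. The share of WT peaks without an overlap was 67.2% (64.7 to 69.6) below 120 bases and 31.5% (28.5 to 34.8) at 350 bases or more. In KO the corresponding shares were 35.2% (32.8 to 37.8) and 2.74% (1.45 to 5.13). At each width the WT share was the higher. The order by width was the same on transcripts with a single peak, from 60.0% to 29.2% in WT and from 35.0% to 4.60% in KO, and on those with at least 2, from 70.2% to 32.1% and from 35.4% to 2.07%. Median width was 180 bases (quartiles 145 and 219) for WT peaks without an overlap, and overlapped WT peaks had quartiles of 167 and 245. In KO the medians were 149 bases without and 182 with an overlap. The narrowest width that occurs, 100 bases, was found in 7.74% of overlapped KO peaks and 17.3% of the others, and in 2.90% and 6.18% of WT peaks.

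**Figure D2:**
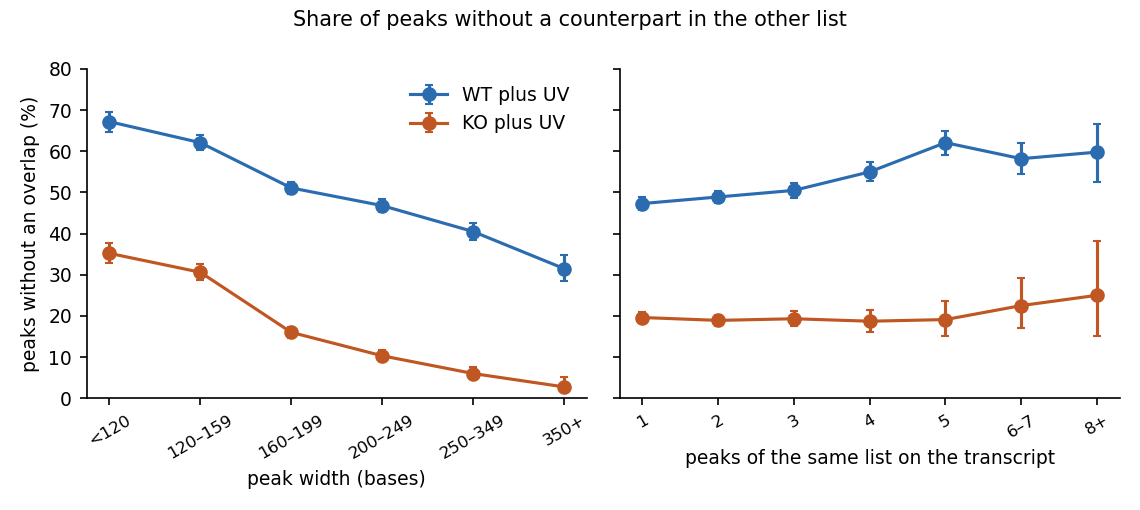
Percent of peaks without an overlap, by peak width in bases (left) and by the number of peaks of the same list on the transcript (right), with 95% Wilson intervals as bars. Both genotypes fall with width, WT from 67.2% to 31.5% and KO from 35.2% to 2.74%, while by peak number the KO share lies between 18.7% and 25% and the WT share between 47.3% (1 peak) and 62.1% (5 peaks).

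**Figure D3:**
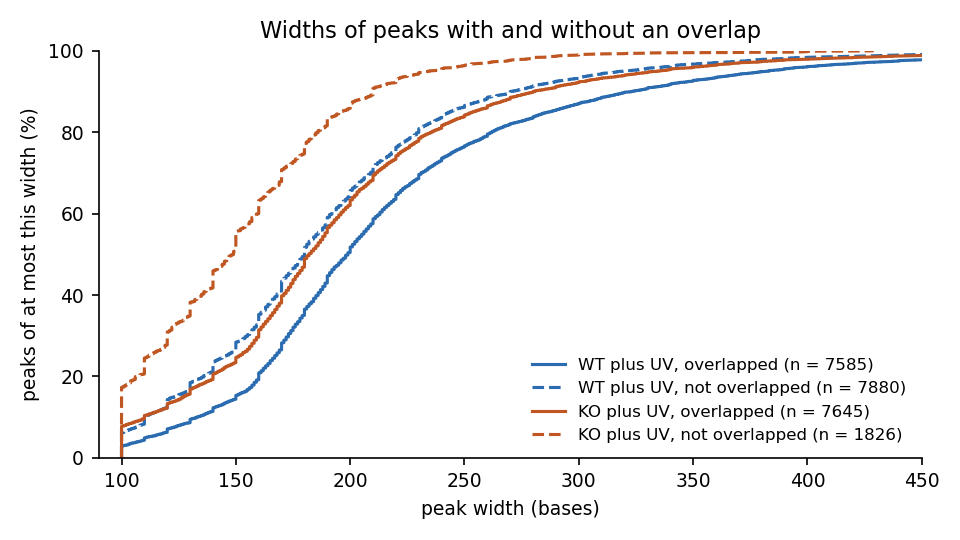
Cumulative percent of peaks up to each width in bases, for peaks with (solid) and without (dashed) an overlap in each list. The curve for KO peaks without an overlap lies furthest to the left, with a median of 149 bases, and that for overlapped WT peaks furthest to the right, with quartiles of 167 and 245.

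Along transcripts, 48.8% (46.9 to 50.7) of WT peaks that began before base 200 had no overlap, and 58.7% (56.2 to 61.1) of those that began at base 4000 or later. For KO these shares were 19.9% (18.1 to 21.8) and 18.8% (16.2 to 21.6). On transcripts in both lists, 22.9% (21.0 to 24.9) of WT peaks that began before base 200 had no overlap, against 37.2% (34.3 to 40.2) of those that began at base 4000 or later. In KO the shares on such transcripts were 12% (10.5 to 13.7) and 16.5% (14 to 19.2). From an unmatched WT peak on such a transcript, the nearest KO peak was a median of 660 bases away (quartiles 227 and 1517). From an unmatched KO peak, the nearest WT peak was a median of 500 bases away (quartiles 147 and 1169). Within 100 bases of a peak of the other list lay 13.5% of the unmatched WT peaks and 18.7% of the unmatched KO peaks. Relative to the KO peaks of their transcript, 45.3% of the unmatched WT peaks came before all of them, 16.2% between them and 38.5% after them.

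A transcript with several peaks in KO was nearly always in the WT list, and the reverse held less. The WT list is the longer, with 8061 transcripts against 5564 in KO, and the part of list length in this order was not tested. None of the 100 KO transcripts with at least 5 peaks lacked a WT peak (0%, up to 3.70% by the Wilson interval), whereas 93 of the 333 WT transcripts with at least 5 peaks (27.9%, 23.4 to 33.0) had no KO peak. Of those with 1 peak, 44.7% in WT and 15.6% in KO were absent from the other list. On transcripts in both lists the number of peaks was equal in 2762 (55.1%), higher in WT in 1480 (29.5%) and higher in KO in 773 (15.4%). Every peak of both lists was overlapped on 2600 of them (51.8%), and none was on 133 (2.65%).

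At the level of genes, 8516 had a peak in at least 1 list. Of these, 3000 (35.2%, 34.2 to 36.2) had one in WT alone, 4973 (58.4%, 57.3 to 59.4) in both and 543 (6.38%, 5.88 to 6.92) in KO alone, and these shares are the background for all gene sets below. They depend on list length and peak number: against the 9471 widest WT peaks, 2018 genes were in WT alone and 1643 in KO alone, and with at least 2 peaks needed, 1302 and 70 were. KO-alone genes had little sequence in peaks: 473 (87.1%) had a single peak, and the median total was 150 bases. WT-alone genes had a single peak in 1698 cases (56.6%) and a median total of 244 bases. Genes in both had a median total of 347 bases in WT, and the KO total was a median of 0.913 times the WT total (quartiles 0.608 and 1.06). Total peak length was higher in WT for 3199 of them (64.3%) and in KO for 1661 (33.4%).

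The 10 WT-alone genes with the most bases in peaks had 4 to 9 peaks each. NIPBL, which loads cohesin onto chromosomes (chromosome 5, 36876769 to 37066413), led with 9 WT peaks over 2061 bases, 7 of them between bases 90 and 3451 and the others at 8396 to 8551 and 9155 to 9442. ASH1L, a histone H3 lysine 36 methyltransferase, had 8 WT peaks (1819 bases). KAT6B, a histone acetyltransferase, had 7 (1569 bases), RPRD2, a protein with an RNA polymerase II C-terminal domain-interacting fold, had 4 (1582 bases) and SP1, a transcription factor of GC boxes, had 5 (1558 bases). Others were KIF26A, an atypical kinesin, with 7 peaks (1885 bases), HELZ2, a helicase and transcriptional coactivator, with 6 (1709 bases), ABL2, a tyrosine kinase, with 4 (1576 bases), and PKD1, the polycystin-1 gene, with 7 (2052 bases). None of the 10 had a KO peak. PKD1 has closely similar pseudogenes, and the counting of reads shared with them was not given in the sources used here.

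Among KO-alone genes the totals were shorter. STARD13, a GTPase activating protein (chromosome 13, 33103137 to 33676794), had 4 KO peaks over 771 bases, at 1195 to 1380, 1454 to 1685, 1857 to 2050 and 3781 to 3939. TSC2, which restrains mTORC1 signalling, had 3 (564 bases), and its gene shares 784 bases of chromosome 16 (2088708 to 2089491) with the end of PKD1. GABRA3, a GABA receptor subunit, had 3 (556 bases), BDNF, a neurotrophin, 3 (548 bases), NPAS2, a circadian transcription factor, 2 (546 bases), and ENG, a TGF-beta coreceptor, 3 (541 bases). DDA1, a subunit of cullin ligases built on DDB1, had 4 peaks (511 bases), TAF8, a TFIID subunit, 2 (482 bases), ANKRD52, a phosphatase regulatory subunit, 3 (475 bases) and IGSF8, an immunoglobulin superfamily membrane protein, 3 (472 bases). The 10 totals, 472 to 771 bases, lie below the 10 WT-alone totals, 1558 to 2061 bases. Each 10 are the longest of their class, picked from 543 KO-alone and 3000 WT-alone genes, so the class sizes bear on this order.

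Genes with peaks in both lists ranged from full correspondence to none. EP300, a histone acetyltransferase (chromosome 22, 41092592 to 41180077), had 8 peaks in each list, all overlapped, with 2304 bases in WT and 2206 in KO. SRCAP, the ATPase that deposits H2A.Z, had 7 in each, all overlapped (2022 and 2065 bases). KMT2D, a histone H3 lysine 4 methyltransferase, had 12 WT and 10 KO peaks, of which 4 and 2 had no overlap. In contrast CREBBP, the paralogue of EP300 (chromosome 16, 3725054 to 3880713), had 6 WT peaks over 2101 bases and 1 KO peak, at 7481 to 7580, that overlapped the WT peak at 7441 to 7544. PLEC, a cytoskeletal linker (chromosome 8, 143915153 to 143976745), had 9 WT peaks between bases 4661 and 14000 and 1 KO peak at 14241 to 14352, with no overlap among them. ANKRD17, an ankyrin repeat protein, had 9 WT peaks and 1 KO peak, which shared its site with 1 of the 9.

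Other genes of this kind were TNRC6A, a scaffold of microRNA silencing, with 7 WT peaks and 1 KO peak, and CHD7, a chromatin remodeller, with 8 and 1. NCOA3, a nuclear receptor coactivator, had 7 and 1, ZKSCAN1, a zinc finger protein, 8 and 2, and RNF213, a large ubiquitin ligase, 11 and 6. More KO than WT peaks were found on fewer transcripts, 773 against 1480. LAMA5, a laminin chain (chromosome 20, 62309065 to 62367312), had 2 WT peaks, both overlapped, and 6 KO peaks, of which 4 at 3191 to 3290, 7645 to 7930, 9931 to 10080 and 10311 to 10496 had no counterpart. FLNA, the actin crosslinker filamin A (chromosome X, 154348531 to 154374634), had 1 WT peak at 8181 to 8360 and 4 KO peaks, of which the one at 8181 to 8364 overlapped it and those at 231 to 330, 1704 to 2100 and 3731 to 3830 did not. PKP4, a plakophilin, had 4 WT and 6 KO peaks with 4 of the latter unmatched. TGFBRAP1, a trafficking adaptor, had 1 and 4, HUWE1, a ubiquitin ligase, 5 and 7, PIP4K2B, a lipid kinase, 3 and 5, and CIT, the citron kinase, 2 and 5, each with 3 KO peaks unmatched.

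**Figure D4:**
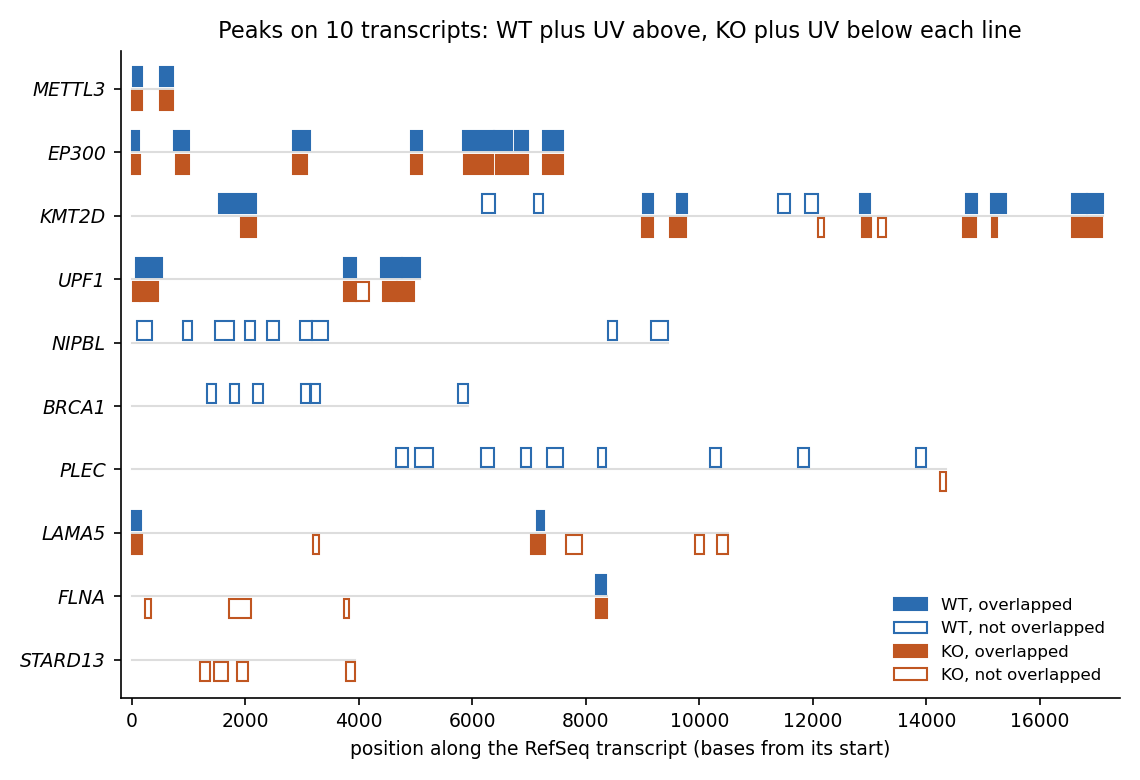
Peaks on 10 transcripts by position in bases from the transcript start, WT plus UV above and KO plus UV below each line, filled where a peak of the other list overlaps; lines end at the last peak. METTL3 and EP300 are filled throughout, NIPBL and BRCA1 hold WT peaks alone, STARD13 holds KO peaks alone, and the 9 WT peaks of PLEC lie before its single KO peak.

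Of the methyltransferase set, 8 of 10 genes had a peak: 2 in WT alone, 5 in both and 1 in KO alone. The WT-alone share was 25% (7.15 to 59.1) and the KO-alone share 12.5%, beside 35.2% and 6.38% of all genes. VIRMA, the scaffold of the complex (chromosome 8, 94487689 to 94553469), had 4 peaks in WT, over 696 bases, and none in KO, and ZC3H13 had 1 WT peak of 100 bases. WTAP (chromosome 6, 159726693 to 159756319) had 1 peak in KO, at 1151 to 1457, and none in WT. CBLL1 had 2 peaks in each list (702 and 690 bases), all overlapped, and RBM15B 3 in each (877 and 505 bases), of which 1 in each had no overlap. METTL16, the methyltransferase of U6 and MAT2A RNA, had 1 in each (389 and 309 bases), and PCIF1 1 in each (288 and 265 bases). METTL14 and RBM15 had none in either list.

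Of the readers and demethylases, 10 of 12 genes had a peak: 3 in WT alone, 7 in both and none in KO alone. Their WT-alone share was 30% (10.8 to 60.3), beside 35.2% of all genes. The cytoplasmic reader YTHDF3 had 2 peaks in WT (342 bases), the demethylase ALKBH5 1 (243 bases) and the helicase reader YTHDC2 1 (155 bases), and KO had none on these. YTHDF1 had 2 in each (315 and 392 bases) and YTHDF2 1 in each (222 and 218 bases). The nuclear reader YTHDC1 had 4 in WT and 3 in KO, IGF2BP2 3 and 1, and the demethylase FTO 2 and 1, with a WT peak at 176 to 380 that KO lacked beside a pair at 567 to 950 and 671 to 950. HNRNPC had 2 in each, and HNRNPA2B1 had 2 in WT and 1 in KO. All 11 KO peaks on this set lay on a WT peak, as did 80.7% of all KO peaks.

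Among transcripts known for m6A sites, MALAT1, a nuclear long noncoding RNA (chromosome 11, 65497738 to 65506516), had 3 peaks in WT alone, at 1224 to 1352, 1801 to 1974 and 2648 to 2948. JUN had 1 in each list, 1851 to 2343 in WT and 1851 to 2338 in KO, and MYC 1 in each, 1711 to 1944 and 1731 to 1963. ACTB had 2 in each, all overlapped. NEAT1, the noncoding scaffold of paraspeckles next to MALAT1 on chromosome 11 (65422798 to 65445540), went the other way, with 1 WT peak at 2021 to 2192 that KO shared (2017 to 2193) and KO peaks at 14 to 170 and 1541 to 1750 that WT lacked. Of the other long noncoding RNAs, NORAD had 4 WT and 2 KO peaks, PVT1 2 and CRNDE 1 in WT alone, SNHG16 1 and 2, and OIP5-AS1 1 in KO alone.

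Among the repair sets, that of the ATR and ATM checkpoint, which signals damage and stalled forks, had 11 WT-alone genes of 21 with a peak (52.4%, 32.4 to 71.7, beside 35.2% of all genes), 9 in both and 1 in KO alone. BRCA1, of homologous recombination (chromosome 17, 43044295 to 43170327), had 6 peaks in WT, from 1320 to 5922, and none in KO. NBN, of the MRE11 complex, had 3 (496 bases), RNF168, a ubiquitin ligase at breaks, 2 (518 bases), H2AX, the damage histone, 2 (241 bases) and ATRIP, the partner of ATR, 1 (272 bases). ATM had 1 KO peak of 148 bases and none in WT. TP53BP1 had 3 in each list, all overlapped (805 and 844 bases), while CLSPN, the claspin adaptor of CHEK1, had 4 in WT and 1 in KO.

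The nucleotide excision repair set, the pathway that removes UV photoproducts, had 5 WT-alone genes of 19, 13 in both and 1 in KO alone. The WT-alone share was 26.3% (11.8 to 48.8), beside 35.2% of all genes. XPC, which finds the lesion, had 3 peaks in each list, all overlapped (663 and 540 bases). CUL4B, a cullin of the DDB1 ligase, had 4 in WT alone (870 bases), ERCC6, of transcription-coupled repair, 3 (540 bases) and its partner UVSSA 2 (342 bases). ERCC5, the 3′ endonuclease, had 4 in WT and 1 in KO, and RAD23B, which stabilises XPC, had 2 in KO alone (364 bases). Translesion synthesis had 3 WT-alone genes of 12 (25%, 8.89 to 53.2, beside 35.2%). USP1, the protease for PCNA ubiquitin, had 4 WT peaks and none in KO, and REV1, a translesion polymerase, had 3 in each. Base excision and mismatch repair had 5 of 21 (23.8%, 10.6 to 45.1, beside 35.2%). PMS2 had 3 WT peaks and none in KO, and MSH6 had 3 WT and 5 KO peaks. DNA replication had 7 WT-alone genes of 32 (21.9%, 11 to 38.8, beside 35.2%) and none in KO alone. POLE, the leading strand polymerase, had 4 WT peaks and none in KO. MCM2 and MCM3, of the replicative helicase, had 2 and 3 in each. PMS2 has closely similar pseudogenes.

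The mRNA decay and deadenylation set had 14 WT-alone genes of 24 (58.3%, 38.8 to 75.5, beside 35.2%), 10 in both and none in KO alone. UPF2, of nonsense-mediated decay (chromosome 10, 11920022 to 12043170), had 5 WT peaks over 1336 bases, the decapping activator DCP1A 5 (1130 bases), the endonuclease SMG6 4 (1046 bases), the kinase SMG1 3 (862 bases) and CNOT4, a ubiquitin ligase of the deadenylase complex, 2 (604 bases), and KO had none on these. UPF1, the helicase of the same pathway, had 4 peaks in WT (1351 bases) and 6 in KO (1422 bases), of which 1 KO peak, at 3949 to 4169, had no overlap. SMG5 had 3 in each. On this set 66.1% of WT and 8.33% of KO peaks had no overlap, beside 50.8% and 19.3% over all genes.

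Genes of the ZNF and ZBTB sets were often found in WT alone. Of 201 ZNF genes with a peak, 108 (53.7%, 46.8 to 60.5, beside 35.2%) were in WT alone, 88 in both and 5 (2.49%, beside 6.38%) in KO alone. ZNF516 had 5 WT peaks and none in KO (1167 bases), ZNF275 5 (1072 bases) and ZNF445 5 (984 bases). ZNF106 had 9 in WT and 4 in KO, whereas ZNF641 and ZNF462 had 2 each in KO alone. Of 25 ZBTB genes, 16 (64.0%, 44.5 to 79.8, beside 35.2%) were in WT alone, 7 in both and 2 (8%, beside 6.38%) in KO alone. ZBTB24, a zinc finger factor linked to DNA methylation at centromeres, had WT peaks at 643 to 1035 and 1798 to 2348 and none in KO, while ZBTB2 had 2 in each list. Of 38 KLHL, KCTD and BTBD genes, the other BTB set, 13 (34.2%, 21.2 to 50.1, beside 35.2%) were in WT alone. The ZNF set includes near-identical paralogues, and their shared reads are open to the same limit.

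Ubiquitin-specific proteases were in WT alone for 17 of 38 genes (44.7%, 30.1 to 60.3, beside 35.2% of all genes) and in KO alone for none. USP24 had 6 WT peaks (1201 bases) and USP9X 5 (1121 bases), with none in KO, and USP10 had 4 in each, all overlapped. Of 35 histone modifiers and remodellers, 11 (31.4%, beside 35.2%) were in WT alone, 23 in both and 1 in KO alone. Of their 166 WT peaks, 55.4% had no overlap, and of the 80 KO peaks 10.0%, beside 50.8% and 19.3% over all genes. Of 35 genes of RNA polymerase II and elongation, 9 were in WT alone (25.7%, beside 35.2%) and 25 in both. Among the 9 were CCNT2 and CTR9 with 4 peaks each. Of 17 p53 targets, 7 (41.2%, 21.6 to 64, beside 35.2%) were in WT alone and none in KO alone. The 7 were led by MDM2, the ligase of p53, with 3 peaks (829 bases). BTG2, an antiproliferative p53 target and immediate early gene, had 3 WT and 5 KO peaks.

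Of 19 immediate early genes with a peak, out of 26, 17 were in both, 1 in WT alone (ZFP36, a decay factor, with 2 peaks) and 1 in KO alone (ATF3, with 1 peak of 100 bases), so that 5.26% (0.935 to 24.6) were in WT alone beside 35.2% of all genes. Within them JUN, MYC and NR4A1 had all peaks overlapped, and KLF10 had 989 bases in WT and 281 in KO. Of 18 heat shock and unfolded protein genes with a peak, out of 22, 17 were in both and none in WT alone (0%, up to 17.6%). HSPB1, with a peak of 100 bases, was in KO alone (5.56%). Over all genes the shares were 58.4% in both, 35.2% in WT alone and 6.38% in KO alone. HSPA4 had 2 peaks in each at 1747 to 2183 and 2619 to 2782 in WT and 1749 to 2182 and 2620 to 2783 in KO. HSP90B1 had 3 in WT and 1 in KO, and HSPA1A 2 and 1, though HSPA1A and HSPA1B are near-identical copies. DEAD and DEAH box helicases were in both for 37 of 44 genes with a peak, beside 58.4% of all genes. They were in WT alone for 6 (13.6%, 6.4 to 26.7, beside 35.2%). DDX3X had 4 peaks in each and DHX38 4 and 1. Proteasome subunits were in both for 25 of 31 with a peak, beside 58.4% of all genes, and in WT alone for 4 (12.9%, 5.13 to 28.9, beside 35.2%).

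Of 26 mitosis genes with a peak, 6 were in KO alone (23.1%, beside 6.38% of all genes) and 15 in both. The 5 in WT alone made up 19.2% (8.51 to 37.9), beside 35.2% of all genes. PLK1, a mitotic kinase (chromosome 16, 23678889 to 23690367), had 1 KO peak at 810 to 1030, and NCAPD2, a condensin subunit, 2 (225 bases). CCNB1, CCNB2 and MKI67 each had 1 KO peak of 100 bases, the narrowest width in the lists. INCENP (532 bases), KIF11 (394 bases) and CDK1 (216 bases) had 1 peak each in WT alone. Of 16 cytosolic ribosomal protein genes with a peak, out of 77, 4 were in KO alone, 4 in WT alone and 8 in both. The KO-alone share was 25%, beside 6.38% of all genes, and the WT-alone share 25% (10.2 to 49.5), beside 35.2%. RPLP0, of the ribosomal stalk (chromosome 12, 120196699 to 120201111), had a KO peak at 361 to 760 and none in WT, while RPL7 and RPL9 had 1 each in WT alone (225 and 206 bases). Mitochondrial ribosomal proteins were in KO alone for 5 of 45 genes (11.1%, beside 6.38%). They were in WT alone for 13 (28.9%, 17.7 to 43.4, beside 35.2%). These KO-alone counts are small. Ribosomal protein genes have many processed pseudogenes.

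**Figure D5:**
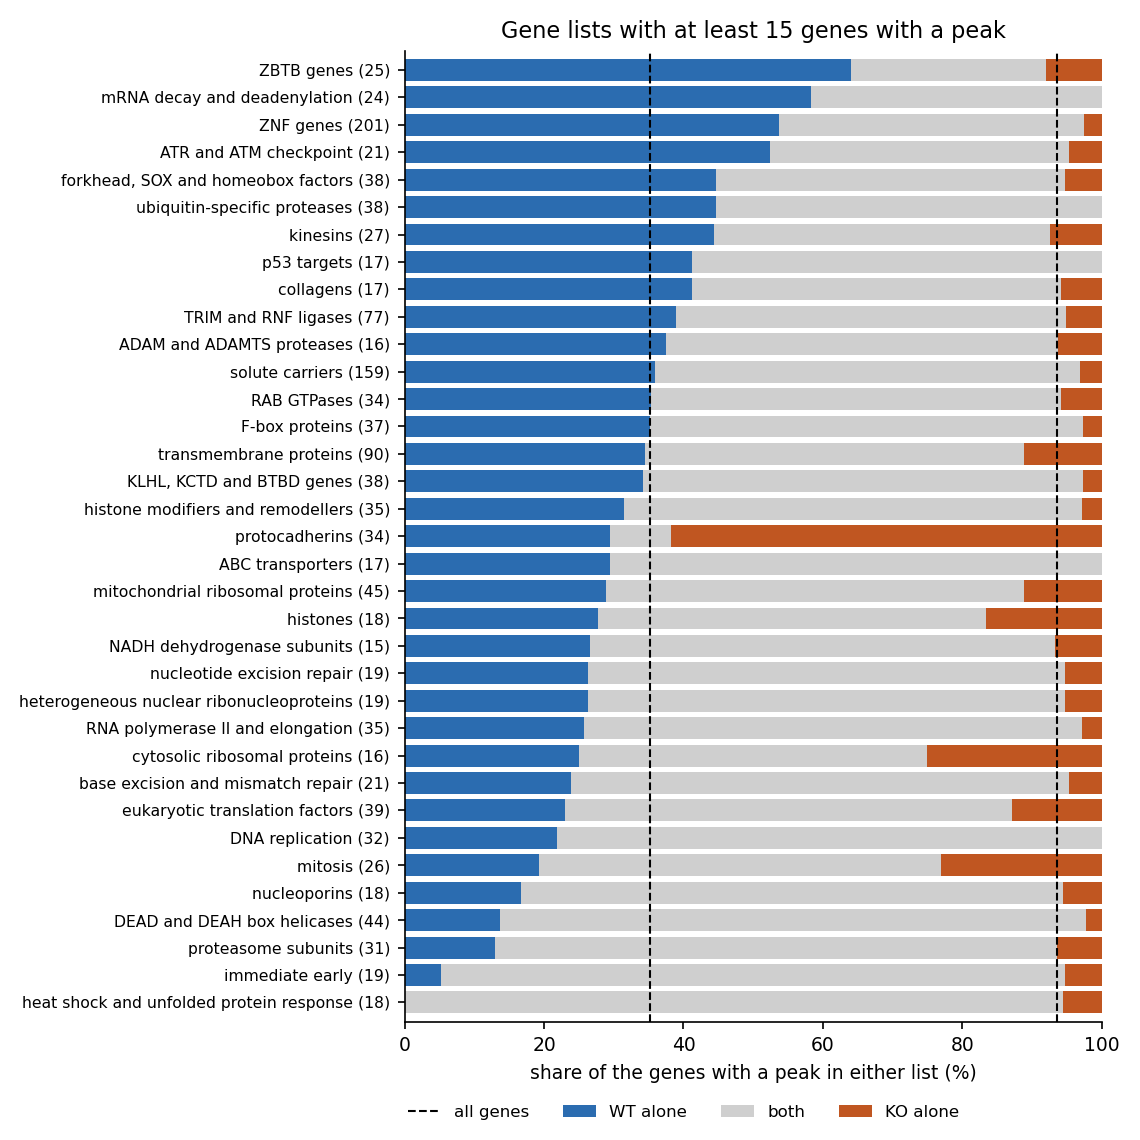
Share of genes in WT alone, both or KO alone for each gene set with at least 15 genes with a peak (number in brackets); dashed lines mark 35.2% in WT alone and 6.38% in KO alone over all 8516 genes. ZBTB, mRNA decay, ZNF and checkpoint genes have the highest WT-alone shares, and immediate early and heat shock genes the lowest. The checkpoint interval (32.4 to 71.7) includes 35.2%. Protocadherins have 61.8% in KO alone, and 20 of these 21 genes belong to the gamma cluster, whose genes all end at the same base.

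Protocadherins, adhesion molecules of neurons with gene clusters on chromosome 5, had 21 of 34 genes in KO alone (61.8%, beside 6.38%), 10 in WT alone and 3 in both. Of these 21, 20 belong to the gamma cluster, whose genes all end at 141512975. Their KO peaks, 21 in all, were 110 to 206 bases wide, and 19 began between bases 3011 and 3941 of their transcripts. The alpha cluster, whose genes all end at 141012347, showed the opposite: 9 of 10 genes were in WT alone, and 9 of its 19 WT peaks began between bases 2611 and 2841. Transcripts of such a cluster share their last exons, so 1 stretch of RNA may stand in the list once for each gene. PCDHGC3 (141475966 to 141512975) had 3 peaks in each list, all overlapped, at 4 to 220, 2001 to 2120 and 2261 to 2400 in WT and at 7 to 190, 1991 to 2110 and 2237 to 2410 in KO. Counting genes of a class with the same start or end once left 523 of the 543 KO-alone and 2984 of the 3000 WT-alone genes. The KO-alone share of chromosome 5 was 11.2% with the clustered protocadherins and 6.95% without them.

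By chromosome, WT-alone genes ranged from 26.3% (20.9 to 32.5) on chromosome 22 to 48.9% (40.6 to 57.2) on chromosome 13, with 47.0% (41.3 to 52.6) on chromosome 8. Chromosome 19, rich in ZNF genes, had 36.3%, and 33.0% without them. KO-alone genes ranged from 2.22% (0.612 to 7.74) on chromosome 21 to 11.4% (8.58 to 14.9) on chromosome 6, beside 6.38% over all genes. With genomic gene length, the share of WT genes that lacked a KO peak was 37.5% (35.2 to 40) in the lowest quintile of length, 34.3%, 33.6% and 37.7% in the next 3 and 44.8% (42.4 to 47.3) in the highest, with no steady rise. Among WT genes with a single peak it was 40.6%, 40.9% and 41.3% in the lowest 3 quintiles, 49.5% in the next and 56% in the highest. Among those with 2 to 4 peaks it was 31.2%, 27%, 26.7%, 30.6% and 40.9% in the same order. The share of KO genes without a WT peak was 14.8% (12.9 to 17) in the lowest quintile, 9.43%, 8.84% and 7.51% in the next 3 and 8.4% (6.82 to 10.3) in the highest.

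Of 15 osteoblast lineage genes, 4 had a peak. COL1A1 and SPARC had one in both lists, SPP1 had 1 in each that did not overlap, and BMP2 had 3 in WT alone. No blood cell marker of 10 had a peak in either list, 2 of 10 epithelial markers (CLDN4 in both, EPCAM in WT alone) and 1 of 10 neuronal markers (NEFL in both) did. These counts are too small to tell lineages apart and do not check the cell label. A peak list shows where a peak was called and not how much RNA a gene makes. In all comparisons of peaks between genotypes, less transcript and less methylation cannot be told apart.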

How the data were processed

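m6A IP and input libraries were aligned with TopHat2 2.0.14 to hg38, per the submitters' processing notes. The authors deposited 1 peak list per condition: a RefSeq transcript with the start and end of each peak along it, counted from 1, and no score (unit: other). The peak caller, its threshold, how libraries were combined and the transcript release are details not given in the sources used here. Transcripts were matched to genes through a RefSeq table (GRCh38.p14): 8519 of 8610 (98.9%) matched, and the rest stayed out of gene counts. Overlaps, shares and Wilson intervals were computed in Python 3.11.15 with statsmodels 0.14.6, and the overlap search was first tested on simulated data.

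The members and lists were chosen with earlier results of these data known. Gene sets were 20 symbol lists and 26 families by symbol pattern; patterns were narrowed to protein-coding members after values were seen. Named genes, with LOC and LINC genes skipped, were the 10 longest in WT or KO alone, 8 each with most unmatched WT or KO peaks, 6 with most common bases, 6 widest 1-to-1 pairs, up to 5 per class of each set, and all m6A genes. METTL14, RBM15 and the genes of the printed windows were named by other rules, given where they stand. A few genes that met the rule are not reported here.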

Additional observations from a re-analysis of the deposited data

How the results depend on the processing

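No paired analysis was possible because each condition has 1 list for all libraries and no value per replicate. The WT share without an overlap (51%) was 52.4% when 50 common bases were needed, 56.1% when 50% of both peaks had to be common, 48.7% when peaks up to 100 bases apart counted as shared, 50.1% after peaks within 100 bases were merged, 55.4% with peaks of at least 150 bases, 45.0% with the widest 9471 WT peaks, 25.5% on transcripts in both lists and 56.8% in bases. The KO share (19.3%) was 21.6%, 28.3% and 16.9% under the first 3 of these, 43.0% against the widest WT peaks, 13.5% on transcripts in both lists and 23.1% in bases. The KO-alone genes (543) rose to 1643 against the widest WT peaks, since genes with narrower WT peaks then count as absent from WT. With at least 2 peaks needed, 1302 genes were in WT alone and 70 in KO alone. The other alternatives, among them leaving out copy-numbered or noncoding transcripts and, added after seeing the data, counting genes with a common boundary once, moved shares by less than their interval or counts by less than 1.5 times. In each alternative the WT share stayed above the KO share, by 2 percentage points with the widest WT peaks. Overlapped peaks were nearly equal in number (7585 in WT and 7645 in KO), so the longer list has the higher share by its length. The WT list was the longer except where only its widest peaks were kept, so this order is not a separate result. Depth and replicate spread are unknown.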
